A study of Homo sapiens with 8 samples.

Results

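Metallothioneins are small, cysteine-rich proteins that bind zinc and copper, and this account follows 6 of their genes (MT1E, MT1F, MT1G, MT1M, MT1X and MT2A) together with 2 genes of zinc control, MTF1 and SLC30A1, in xenograft tumours with and without SMARCA4. The 8 genes were taken by symbol from the 59050 gene symbols counted in each tumour. The tumours were xenografts of H2122 cells, an established line of human lung cancer. In 4 tumours the cells were parental (genotype WT), in 4 they carried a SMARCA4 knockout (SMARCA4 KO), and all 8 tumours had received vehicle. SMARCA4 is an ATP-driven motor subunit of SWI/SNF, a chromatin remodeller. Tumour age, host strain, the vehicle and whether the knockout line is 1 clone are not given in the sources used here. Nothing in the labels says that the tumours came from separate animals, so p-values measure the spread between these samples, which may be technical.

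As background, free zinc in the cell is sensed by MTF1, a zinc-finger transcription factor that binds metal response elements in promoters and switches on metallothionein genes and SLC30A1. Metallothioneins then bind the metal, and SLC30A1 (also called ZnT1) carries zinc out of the cell across the plasma membrane. Metallothionein genes also respond to cadmium, copper, oxidative stress and, for some members, glucocorticoids, and several MT1 genes are silenced by DNA methylation in cancers.

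The coding sequences below are shown because the paralogs are so alike that reads can be hard to assign to 1 of them. They come from GENCODE 29 transcripts, run 5′ to 3′ from start to stop codon, and capitals mark bases that differ from MT2A.
MT2A: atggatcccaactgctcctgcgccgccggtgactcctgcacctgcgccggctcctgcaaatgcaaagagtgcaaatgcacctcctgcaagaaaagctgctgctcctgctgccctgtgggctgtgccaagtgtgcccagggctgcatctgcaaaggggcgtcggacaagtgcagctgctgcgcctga
MT1X: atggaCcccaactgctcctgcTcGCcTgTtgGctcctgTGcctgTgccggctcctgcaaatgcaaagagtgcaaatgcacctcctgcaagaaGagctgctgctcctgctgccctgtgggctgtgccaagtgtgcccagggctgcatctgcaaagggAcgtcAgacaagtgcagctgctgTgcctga
MT1F: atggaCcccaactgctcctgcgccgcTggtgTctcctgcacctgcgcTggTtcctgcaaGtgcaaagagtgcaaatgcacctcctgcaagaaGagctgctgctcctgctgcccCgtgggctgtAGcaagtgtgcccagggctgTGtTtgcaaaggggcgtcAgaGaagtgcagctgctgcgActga
Each of the 3 has 186 bases, and each holds 20 cysteine codons among 62 codons, stop codon included. MT1X differs from MT2A at 14 of these bases (92.5% identity) and MT1F at 16 (91.4%). MT1X and MT1F differ from each other at 21 bases. Over the whole transcript, 45.1% of the 50-base windows of MT1X occurred exactly in a transcript of another gene, against 4.89% for MT2A and 3.59% for MT1F. The 50-base share was 20.2% for MT1G, 7.05% for MT1M and 5.34% for MT1E. With 100-base windows the share was 19.1% for MT1X and 0% for MT2A, MT1F, MT1E, MT1G and MT1M. All of the MT1X share was with AC026461.1, a gene model on the same strand that shares 321 exon bases with MT1X. AC026461.1 had 0 counts in all 8 tumours. Reads in exon bases of more than 1 gene can be set aside as ambiguous, so these 0 counts do not show that MT1X lost none. The read length and counting options are not given in the sources used here. How many reads were lost to or gained from paralogs, or lost in shared exon bases, is therefore unknown, and the count of any single metallothionein gene is uncertain to that extent.

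The promoter windows below are shown because MTF1 acts through metal response elements. They hold the 250 bases before the RefSeq start site (GRCh38.p14), 5′ to 3′ on the strand of the gene, and capitals mark matches to the core of the element, TGCACNC or TGCGCNC, searched on both strands. RefSeq windows were matched for 4 of the 8 genes (MT1X, MT2A, MTF1 and SLC30A1). MT2A is at chr16:56608334-56608583 (plus strand), MT1X at chr16:56682220-56682469 (plus strand) and SLC30A1 at chr1:211579162-211579411 (minus strand).
MT2A: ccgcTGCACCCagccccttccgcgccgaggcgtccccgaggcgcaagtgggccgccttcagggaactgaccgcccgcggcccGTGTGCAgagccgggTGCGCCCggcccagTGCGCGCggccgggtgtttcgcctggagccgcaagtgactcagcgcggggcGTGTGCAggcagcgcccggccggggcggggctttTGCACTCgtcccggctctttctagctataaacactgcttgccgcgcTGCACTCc
MT1X: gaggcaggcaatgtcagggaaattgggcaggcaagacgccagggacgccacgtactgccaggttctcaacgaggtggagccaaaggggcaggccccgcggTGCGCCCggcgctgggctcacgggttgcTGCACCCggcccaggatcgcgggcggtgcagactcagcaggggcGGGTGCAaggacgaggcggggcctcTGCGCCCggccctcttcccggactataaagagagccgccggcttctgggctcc
SLC30A1: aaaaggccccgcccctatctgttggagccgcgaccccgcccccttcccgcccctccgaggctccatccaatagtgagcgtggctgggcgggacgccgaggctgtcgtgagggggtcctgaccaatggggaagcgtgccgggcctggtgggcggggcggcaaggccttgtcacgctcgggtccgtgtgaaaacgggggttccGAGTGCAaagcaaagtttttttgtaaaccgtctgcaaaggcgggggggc
MT2A held 7 matches, beginning 246, 168, 153, 139, 88, 54 and 8 bases before the start. MT1X held 4, beginning 150, 122, 78 and 53 bases before it, and SLC30A1 held 1, at 49 bases. No matches overlapped each other. Of 35116 RefSeq windows of the same length, 24.8% held at least 1 match, 0.37% at least 4 and 0.031% at least 7. The window of MTF1 itself held none. A match is a stretch of letters and not a measured binding site.

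Gene counts totalled 19785922 to 23191698 in parental and 20662882 to 21981123 in knockout tumours. Mitochondrial genes took 4.74% to 9.47% of these counts in parental and 8.57% to 10.9% in knockout tumours, ranges that overlap. Knockout replicate 4 was the lowest knockout tumour for MT2A, MT1X, MT1F, SLC30A1 and MTF1. It had the highest mitochondrial share and the highest share of reads outside genes (10.4%). The part of RNA quality in the results was not tested. SMARCA4 was at 198 to 235 CPM (read counts relative to the TMM-scaled library size) in parental and 22.3 to 31.1 CPM in knockout tumours, so every tumour was on the side its label gives. Markers of epithelium (EPCAM, keratins and others, 8 genes) were all detected and summed to 6888 to 9158 CPM, while the lung lineage factor NKX2-1 and the surfactant gene SFTPC were at 0 in all 8 tumours. Markers of other cell types were present at lower levels. The 8 leukocyte and macrophage markers summed to 68.3 and 58.95 CPM in parental replicates 2 and 3 and to 7.02 to 28.7 CPM in the other 6 tumours. By exact permutation (two-sided), 0 of the 8 marker lists had sums that differed between the groups at 0.05 before adjustment; the lowest p was 0.0857, for epithelium, and the smallest possible is 0.0286. Among single markers, 2 of 8 tested of epithelium and 1 of 2 tested of endothelium were called lower in knockout tumours. Of 5 tested fibroblast markers, 1 was called higher. Over all 16219 genes tested, 14.1% were called lower and 13.0% higher. Reads of the mouse host that align to human genes cannot be told apart from tumour reads in these counts.

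Of the 8 genes, 5 had enough counts to be tested, and all 5 changed: MT2A, MT1X, MT1F and SLC30A1 were higher in knockout tumours and MTF1 was lower (edgeR quasi-likelihood test, Benjamini-Hochberg adjusted p under 0.05). Over all 16219 genes tested, 27.0% were called, 13.0% higher and 14.1% lower. The other 3 genes, MT1E, MT1G and MT1M, had at most 5 counts in any tumour and were not tested. The median log2 fold change of the 5 tested genes was 0.95, against 0.00 (0.0035) over all genes tested. The 8 genes were chosen with earlier results of these data known, so setting them against all genes is a description and not a test. Groups did not overlap for 4 of the 5 genes, MT1X being the exception, and for 29.3% of all genes tested (14.0% with knockout higher, 15.3% with knockout lower). In bulk tumours, fewer cells that express a gene and less RNA per cell cannot be told apart.

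MT2A, at chromosome 16 from 56608199 to 56609497 (plus strand, GENCODE 29 on GRCh38), was the most abundant metallothionein gene. It was at 46.2, 50.04, 65.6 and 65.01 CPM in parental replicates 1 to 4 and at 123, 108, 127 and 102 CPM in knockout replicates 1 to 4. Every knockout tumour was above every parental tumour, and the lowest knockout value was well clear of the highest parental one. Group means stood at 56.7 ± 10.03 and 115 ± 12.3 CPM (SD, n = 4 each). On the log2 scale MT2A rose by 1.02 (SE 0.13; edgeR adjusted p = 0.000172), or 2.03-fold. MT2A stood at rank 676 by p among all genes tested.

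MT1X (chromosome 16, 56682424 to 56684196, plus strand) encodes another member of the same protein family. It was at 4.45, 11.5, 8.66 and 6.55 CPM in the parental group and at 20.8, 16.7, 14.1 and 8.78 CPM in the knockout group. Knockout replicate 4 lay below parental replicate 2, so the groups overlapped, and MT1X varied more among tumours of a group than MT2A did. On the log2 scale it rose by 0.95 (SE 0.30, edgeR adjusted p = 0.0338). The call was lost when any 1 of parental replicates 1, 3 and 4 or knockout replicates 1, 2 and 3 was left out, with adjusted p up to 0.105, while the fold change stayed between 0.76 and 1.20 on the log2 scale over all 8 such fits. The highest parental values were those of replicates 2 and 3, the tumours with the highest leukocyte marker sums. Leaving both out, a setting chosen after the data were seen, removes the highest parental values and so had to raise the log2 fold change, which was then 1.44. Leukocyte markers were not alone in this. Within the parental group, replicates 2 and 3 also had the highest sums of endothelium (10.7 and 18.04 CPM) and hepatocyte markers (1401 and 1408 CPM). Of the 4 hepatocyte markers, SERPINA1 was the most abundant, 1 had enough counts to be tested and TTR was at 0 in all 8 tumours. LYZ was the most abundant of the leukocyte and macrophage markers. A sum that 1 gene can carry does not show that the named cells were present. Skeletal muscle markers summed highest in parental replicate 2 (32.03 CPM) and knockout replicate 4 (14.4 CPM). The part of leukocyte RNA, or of RNA of other cells, in the MT1X values was not tested.

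MT1F (chromosome 16, 56657694 to 56660698, plus strand) was at 1.97, 4.05, 3.13 and 2.47 CPM in the parental group and at 7.62, 7.70, 7.23 and 5.83 CPM in the knockout group. All knockout values were above all parental values, and as for MT1X the parental replicates 2 and 3 were the highest of their group and knockout replicate 4 the lowest of its group. MT1F rose by 1.29 on the log2 scale (SE 0.22, edgeR adjusted p = 0.00112).

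**Figure D1:**
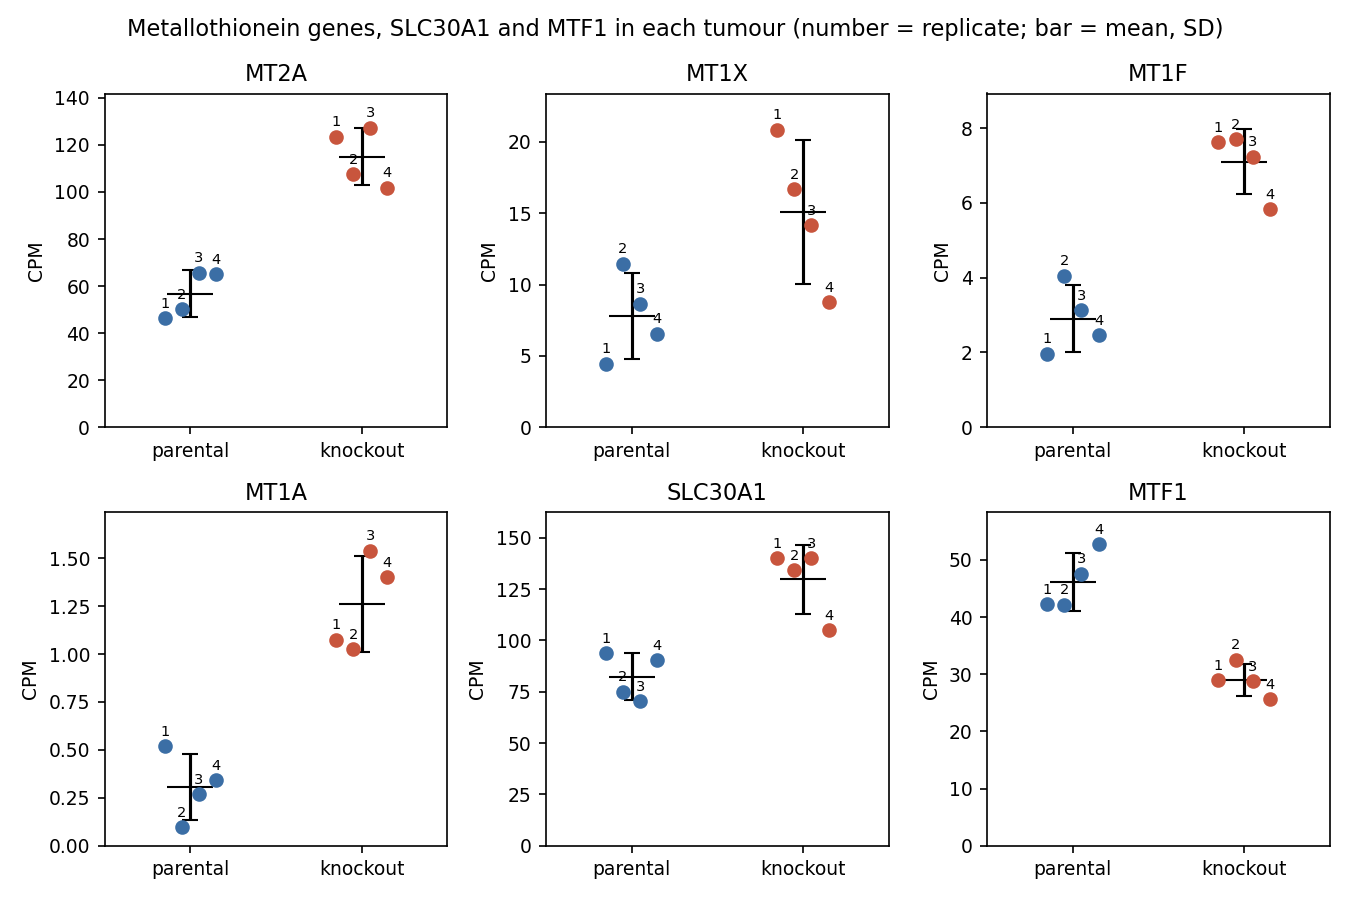
CPM of MT2A, MT1X, MT1F, MT1A, SLC30A1 and MTF1 in each of the 8 tumours, in parental (blue) and knockout (red) groups, with replicate numbers beside the points and the group mean and SD in black; each axis starts at 0. Only MT1X overlaps between the groups, with knockout replicate 4 (8.78 CPM) below parental replicate 2 (11.5 CPM), and MTF1 is the only gene of the 6 that is lower in knockout tumours.

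SLC30A1, the zinc exporter (chromosome 1, 211571568 to 211578742, minus strand), was at 93.8, 74.99, 70.3 and 90.5 CPM in the parental group and at 140.1, 134, 140.2 and 105 CPM in the knockout group. The groups did not overlap, although knockout replicate 4 stood below the other 3 knockout tumours. SLC30A1 rose by 0.66 on the log2 scale (SE 0.12, edgeR adjusted p = 0.00234), a 1.58-fold difference.

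MTF1, the zinc-sensing factor (chromosome 1, 37809567 to 37859620, minus strand), went the other way. It was at 42.3, 42.2, 47.6 and 52.7 CPM in the parental group and at 28.97, 32.5, 28.8 and 25.6 CPM in the knockout group, so each knockout tumour lay below each parental tumour. MTF1 had a fitted fold of 0.627, on the log2 scale -0.67 (SE 0.11; edgeR adjusted p = 0.000741). Transcript counts show neither the amount of MTF1 protein nor its occupancy of promoters.

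MT1E, MT1G and MT1M were close to undetected in both groups. MT1E had 1 count over the 4 parental and 0 over the 4 knockout tumours, and MT1M had 2 and 3. Both lie at or under the 3 counts that a count of 0 allows, which is 0.0350 CPM over the parental group, so no fold is given for either. For MT1G the parental tumours, replicates 1 to 4, gave 0, 5, 4 and 0 reads and the knockout tumours 1, 0, 1 and 1. The parental-to-knockout ratio of its pooled counts was 2.97 (exact 95% interval 0.741 to 17.04, counting error only), which includes no difference. MT1H, a further paralog, had 3 counts in each of parental replicates 2 and 3 and 0 in the other 6 tumours. The exact 95% interval of its parental-to-knockout ratio began at 1.165, above 1. That bound holds counting error only and leaves out the spread between tumours, while all reads came from parental replicates 2 and 3. Together, MT1E, MT1G, MT1M and MT1H had 10 and 8 counts in parental replicates 2 and 3, 0 in replicates 1 and 4, and 1 or 2 in each knockout tumour. Parental replicates 2 and 3 are again the tumours with the highest leukocyte marker sums (68.3 and 58.95 CPM). Within the parental group they also had the highest endothelium and hepatocyte marker sums. Since 1 abundant gene can carry such a sum, the sums do not show which cells were present. The part of other cells in these few reads was not tested.

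**Figure D2:**
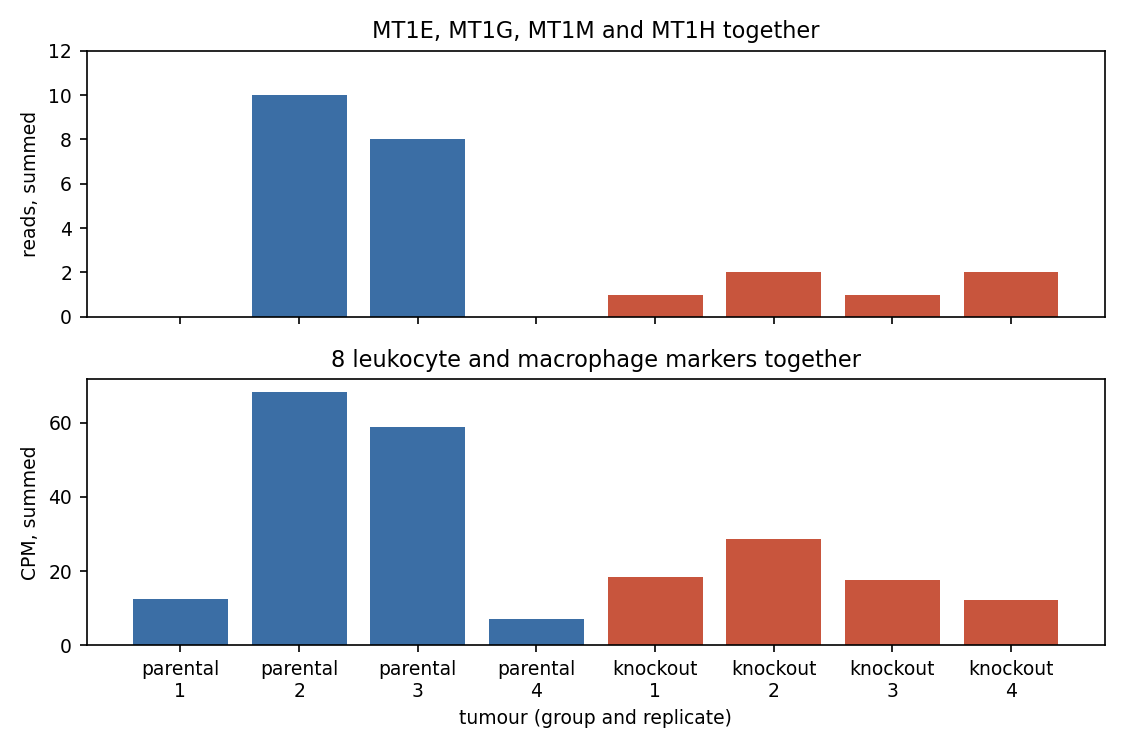
Summed read counts of MT1E, MT1G, MT1M and MT1H (top) and summed CPM of 8 leukocyte and macrophage markers (bottom) in each tumour, parental in blue and knockout in red. Parental replicates 2 and 3 have the tallest bars in both panels, with 10 and 8 reads above and 68.3 and 58.95 CPM below. Marker sums of other cell types are not drawn.

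The counts of the 6 metallothionein genes were also summed, because their sum does not depend on how reads were divided among them. The sum was 52.7, 65.9, 77.6 and 74.02 CPM in the parental group and 152, 132, 149 and 117 CPM in the knockout group. No test was made of this sum; the means were 67.6 ± 11.07 and 137 ± 16.4 CPM (SD, n = 4 each), a ratio of 2.03, and the ranges did not overlap. Metallothionein reads made up 0.00681% ± 0.00124 of gene counts in parental and 0.0136% ± 0.00147 in the knockout group (SD, n = 4 each). The shares of the 3 genes within the sum overlapped between the groups. MT2A gave 84.02% ± 5.61 of its reads in parental and 83.9% ± 3.05 in knockout tumours, MT1X 11.5% ± 4.14 and 10.8% ± 2.84, and MT1F 4.31% ± 1.26 and 5.18% ± 0.441 (SD, n = 4 each).

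Levels of different genes were compared per kilobase of annotated exon. In parental tumours MT2A was highest at 43.7 ± 7.72 CPM per kb, followed by SLC30A1 at 15.1 ± 2.101, MTF1 at 5.76 ± 0.628, MT1X at 4.39 ± 1.69 and MT1F at 1.54 ± 0.477 (SD, n = 4 each), with MT1G, MT1M and MT1E at 0.3255 or less in every tumour. MTF1 and MT1X were not apart beyond their spread, since MTF1 ran from 5.26 to 6.57 and MT1X from 2.51 to 6.47 CPM per kb. In knockout tumours MT2A stood at 88.6 ± 9.44, SLC30A1 at 23.7 ± 3.07, MT1X at 8.52 ± 2.85, MT1F at 3.76 ± 0.458 and MTF1 at 3.61 ± 0.351 CPM per kb. There MT1X was above MTF1 in every tumour (4.95 to 11.8 against 3.19 to 4.05), while MT1F and MTF1 were not apart. The exon lengths include retained introns of minor transcripts, such as 1773 bases for MT1X against 450 in its coding transcript, and 1889 against 690 for MT1F. Levels per kilobase are therefore lower here than over the coding transcript alone, and not by the same factor for each gene. The order of the genes, and which are apart, hold only for these exon lengths. Over coding transcripts MT1X could rank higher, and that order was not computed.

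Of 12 other metallothionein genes and pseudogenes with counts listed, only MT1A passed the filter on low counts, and it was higher in knockout tumours. Parental tumours, replicates 1 to 4, gave 10, 2, 6 and 8 MT1A reads and knockout tumours 23, 21, 33 and 30. The groups did not overlap. MT1A passed the filter through the knockout group, so the filter favoured a higher knockout level and its call is no support for a difference. The fitted log2 difference of MT1A was 2.03 (SE 0.38), and its pooled counts were 107 in knockout against 26 in parental tumours. Unlike MT1X and MT1F, MT1A was lowest in parental replicate 2 (0.0977 CPM). MT3, MT4 and MT1HL1 had 0 counts in all 8 tumours.

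The 6 metallothionein genes lie together on chromosome 16, in a cluster of 119.1 kb between the outer ends of MT4 and MT1X. Genes within 500 kb on either side were examined as a description of the region, chosen after the values were seen. Of 10 tested neighbours, 1 was called higher (CPNE2, log2 fold change 0.60) and 1 lower (NLRC5, -1.04), and the median log2 fold change of the 10 was 0.04. These counts are near the shares over all genes tested (13.0% higher, 14.1% lower). The nearest tested genes on either side, BBS2 (0.11, edgeR adjusted p = 0.377) and NUP93 (-0.03, adjusted p = 0.904), were not called.

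**Figure D3:**
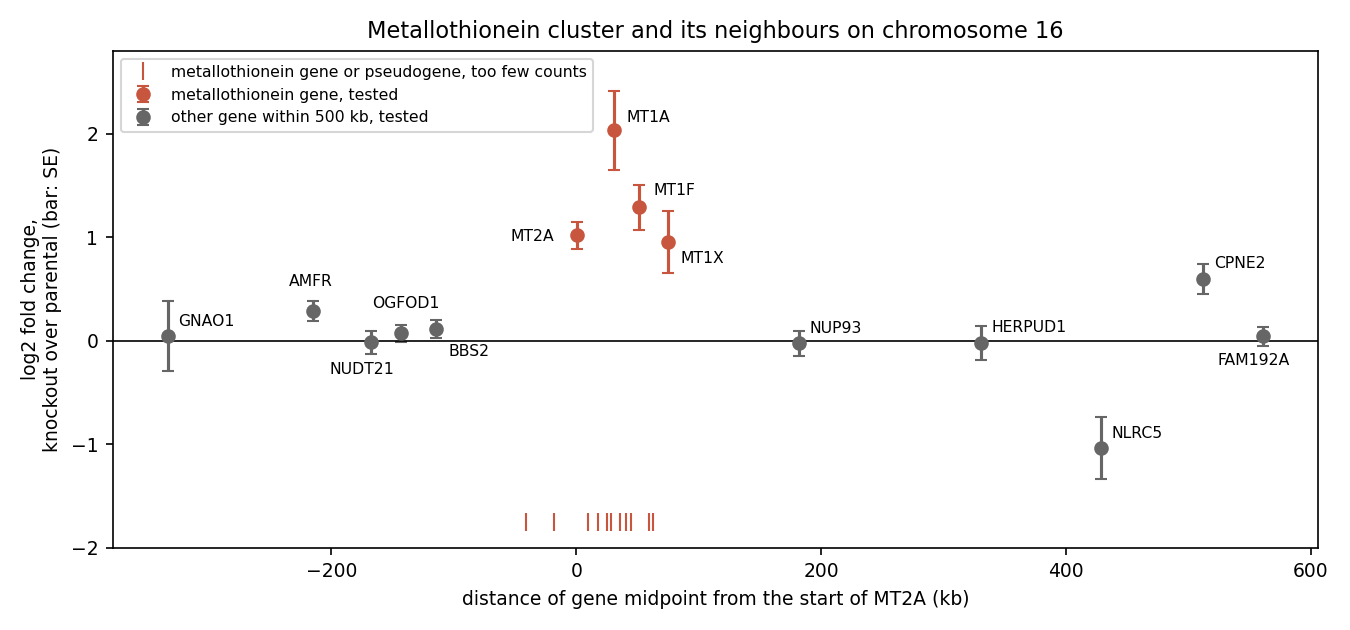
Log2 fold change (knockout over parental, edgeR, bars show SE) of tested metallothionein genes (red) and tested neighbours (grey) against distance in kb from the start of MT2A; ticks at the bottom mark metallothionein genes and pseudogenes with too few counts. MT2A, MT1F and MT1X lie between 0.95 and 1.29, the neighbours run from -1.04 (NLRC5) to 0.60 (CPNE2), and MT1A is drawn although it passed the filter through the knockout group.

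Zinc transporters other than SLC30A1 were examined next. SLC30A genes encode exporters that move zinc out of the cytosol, and SLC39A genes encode importers. Of 17 tested among 23, 3 were called higher and 0 lower, with a median log2 fold change of 0.11. Over all genes tested, 13.0% were called higher and 14.1% lower, so 3 of 17 is near the general share. DESeq2 called 3 higher and 0 lower, and limma-voom 2 higher and 0 lower. SLC30A4, an exporter into vesicles, was at 1.47 to 2.49 CPM in the parental group and 5.41 to 7.65 CPM in the knockout group, with no overlap; the log2 difference was 1.70 (SE 0.20; edgeR adjusted p = 0.000104). SLC30A3 was at 0.259 to 0.553 and 1.17 to 1.95 CPM, also without overlap, and differed by 1.96 on the log2 scale (SE 0.31). Like MT1A it passed the filter through its knockout counts, so its call is no support for a difference, although it is among the 3. SLC39A8, a zinc and manganese importer, was at 107 to 125 and 126 to 236 CPM, a log2 fold change of 0.54 (adjusted p = 0.0409). The SLC39A8 call was lost in 6 of the 8 fits without 1 tumour, with limma-voom (adjusted p = 0.0542), with the replicate block (0.0675) and without parental replicates 2 and 3 (0.127). Its log2 fold change was 0.32 without knockout replicate 2, the tumour with 236 CPM. The 2 most abundant transporters, SLC39A9 (188 ± 5.97 and 186 ± 12.9 CPM) and SLC39A6 (140 ± 13.5 and 147 ± 23.9 CPM; SD, n = 4 each), were not called. Nor were the tested exporters SLC30A5 (-0.10), SLC30A6 (0.11), SLC30A7 (-0.18) and SLC30A9 (0.00) on the log2 scale, and exporters were not tested against importers.

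Metal and oxidative stress genes gave a mixed picture, with 3 of 10 called higher and 0 lower and a median log2 fold change of -0.06. The share called over all genes tested was 27.0% (13.0% higher, 14.1% lower). The 3 were TXNRD1 (thioredoxin reductase, 0.74, edgeR adjusted p = 0.000103), GCLC (the catalytic subunit of glutathione synthesis, 0.59, adjusted p = 0.00232) and HMOX1 (haem oxygenase, 0.65, adjusted p = 0.0058). All 3 had groups that did not overlap; HMOX1, for example, ran from 12.5 to 16.6 CPM in the parental group and from 18.3 to 27.1 CPM with the knockout. SLC7A11, the cystine transporter, was not called (-0.14, adjusted p = 0.504), and none of the 4 heat shock genes of the list was called. DESeq2 and limma-voom each called 4 genes of this list higher and 0 lower. The fit without parental replicates 2 and 3 called 3 higher and 2 lower.

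Among 11 copper handling genes, all tested, 2 were called higher and 2 lower, with a median log2 fold change of -0.09. For comparison, 27.0% of all genes tested were called, 13.0% higher and 14.1% lower. ATP7B, a copper exporter, fell. Its parental tumours averaged 14.9 ± 3.38 CPM and its knockout tumours 9.08 ± 0.835 CPM (SD, n = 4 each; log2 fold change -0.72, edgeR adjusted p = 0.00739). SLC31A2 (0.55, adjusted p = 0.0227), ATOX1 (-0.33, 0.0447) and SCO1 (0.23, 0.0484) were nearer the threshold. The SLC31A2 call was lost in 4, the ATOX1 call in 6 and the SCO1 call in all 8 of the fits that left out 1 tumour. SOD1, which uses copper and zinc, was not called (-0.09, adjusted p = 0.621).

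Glucocorticoid response genes were listed because glucocorticoids also induce MT2A. Of 6 tested, 0 were called higher and 2 lower, with a median of -0.14. Among all genes tested, 13.0% were called higher and 14.1% lower. FKBP5, a chaperone of the glucocorticoid receptor, fell without overlap between the groups. It averaged 40.4 ± 10.2 CPM in the parental and 20.6 ± 1.70 CPM in the knockout group (SD, n = 4 each; log2 fold change -0.97, SE 0.16, edgeR adjusted p = 0.00102). TSC22D3 had a log2 fold change of -0.40 (adjusted p = 0.0399), a call lost in 6 of 8 fits without 1 tumour. The receptor gene NR3C1 (0.05, adjusted p = 0.788) and DUSP1 (0.23, adjusted p = 0.246) were not called. Without parental replicate 3 the value for NR3C1 was -0.04. DESeq2 and limma-voom each called 1 gene of this list higher.

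**Figure D4:**
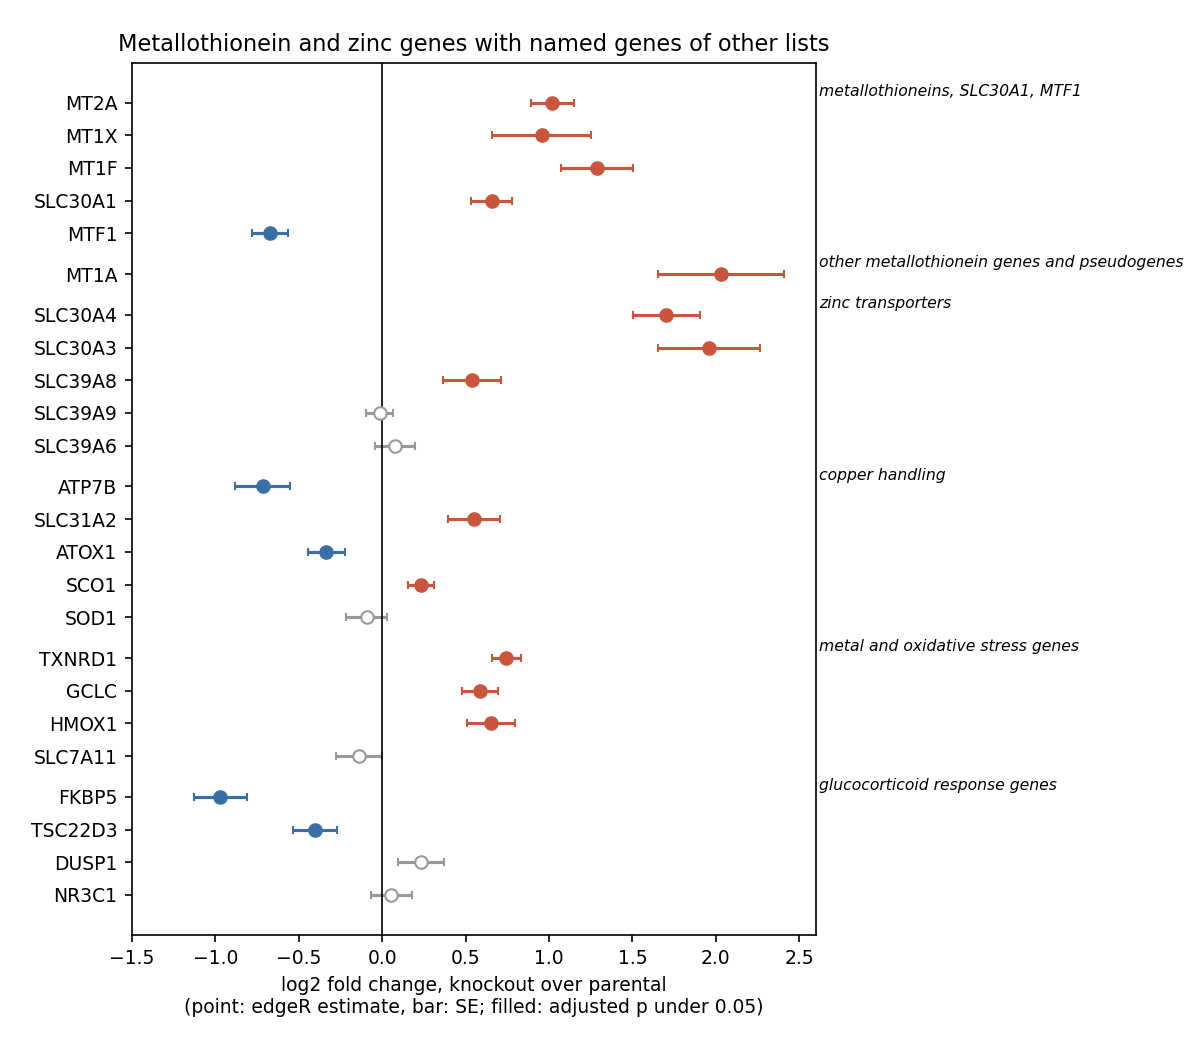
Log2 fold changes (knockout over parental) with SE for the 5 tested genes and for named genes of the 5 other lists; filled points passed an edgeR adjusted p under 0.05, red higher and blue lower, and open grey points did not. Of the 5 tested genes, MT2A, MT1X, MT1F and SLC30A1 lie to the right of 0 and MTF1 to the left; the other lists show only their called and most abundant genes, and MT1A and SLC30A3 were tested only because of their knockout counts.

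Finally, genes whose log2 CPM averaged 1 or more were ordered by how closely their centred log2 CPM followed the mean pattern of MT2A, MT1X and MT1F over the 8 tumours. Of 13050 genes outside the metallothionein family, the 5 closest were CHRNA7, EFNA1, IGFBP3, ZNF699 and CLIP2, with root mean square differences of 0.113, 0.126, 0.129, 0.138 and 0.152 on the log2 scale. The closest, CHRNA7, a nicotinic receptor subunit, averaged 3.305 ± 0.541 CPM without and 7.07 ± 1.20 CPM with the knockout (SD, n = 4 each). IGFBP3, an IGF-binding protein, was at 450.2 ± 124 and 1006 ± 245 CPM. SLC30A1 came at place 755 of 13050 with a difference of 0.406, and MTF1 at place 11943 with 0.922. This difference counts the size of a change as well as its course over the tumours. The 5 closest genes had log2 fold changes of 0.97 to 1.20, against 0.66 for SLC30A1, so its place does not speak of its course alone.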

How the data were processed

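RNA-seq was compared between 4 parental and 4 SMARCA4 knockout H2122 xenografts; groups and replicate numbers come from the sample titles. The authors deposited unnormalized whole-number counts of reads for each gene symbol, in 1 file per tumour. The submitters' processing notes name TopHat2 2.1.1, HTSeq 0.11.0 and hg38; the annotation, counting options, strandedness and any removal of mouse reads are not given in the sources used here. The 5 summary lines per file (14.8% to 20.9% of reads) stayed out of library sizes and tests. All 28 pairs of libraries differed by more than sampling noise (chi-square per degree of freedom at least 9.13).

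Counts were fitted with edgeR 4.0.16 in R 4.3.3: filterByExpr (minimum count 10, minimum total 15), TMM scaling, quasi-likelihood F-test, no covariate, Benjamini-Hochberg adjustment over 16219 genes, calls at an adjusted p under 0.05. SE is the fold change divided by the square root of F. The fit was tested on simulated counts. Positions and exon lengths are from GENCODE 29 and promoters from RefSeq, both GRCh38. Alternatives used DESeq2 1.42.0, limma-voom (limma 3.58.1), other scalings and filters, a replicate block, and fits without 1 tumour.

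The genes and lists were chosen with earlier results of these data known. Named were the 8 genes, SMARCA4, from each list all called genes and the 2 most abundant, and the 5 genes most alike in pattern. A list gene without a row is not analysed here.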

Additional observations from a re-analysis of the deposited data

Results flagged for a closer look

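In 53 sets of 4 values, the highest or lowest tumour was set against the other 3, and 4 sets had a value far apart; chance flags about 1 in 20. SLC30A1 was at 105 CPM in knockout replicate 4, against 134 to 140.2 CPM in the other knockout tumours, and still above every parental tumour. NR3C1, the glucocorticoid receptor gene, was at 115 CPM in parental replicate 3, against 149 to 154 CPM in the other parental tumours. The other cases rest on single reads: MT1E at 0.0488 CPM (1 read) in parental replicate 2 with 0 elsewhere in that group, and MT1G at 0 CPM in knockout replicate 2 with 1 read in each of the other 3 knockout tumours.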

How the results depend on the processing

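Over 18 alternatives, the number of genes called higher among the 8 was 4 in every fit on all tumours and 3 or 4 when 1 tumour was left out; 1 was called lower in each. MT2A (log2 fold change 0.93 to 1.09), MT1F (1.14 to 1.66, the upper end without parental replicates 2 and 3), SLC30A1 (0.49 to 0.75) and MTF1 (-0.73 to -0.61) kept direction and call in all 18. SLC30A1 was lowest without parental replicates 2 and 3 together, a setting chosen after the data were seen. The summed metallothionein log2 ratio was 0.91 to 1.11 over the 13 of them that bear on it. All called genes numbered 3501 to 4946. Values near 0 changed sign: with 1 tumour left out, SLC39A9 ran from -0.0439 to 0.0313, SLC39A6 from -0.0106 to 0.1787 and NR3C1 from -0.0413 to 0.1461; SLC39A9 was 0.0205 with upper-quartile scaling, and SLC39A6 was -0.0459 and NR3C1 -0.0386 without parental replicates 2 and 3. The copper list had 0 to 3 higher and 1 to 3 lower calls, and the stress list 3 or 4 higher and 0 to 2 lower. The glucocorticoid list had 0 or 1 higher and 1 to 3 lower. Replicate numbers did not pair the tumours (same-number correlations of deviations -0.19 to 0.09); with the replicate block 3871 genes were called, and among the 8 the calls were the same, 4 higher and 1 lower. A motif with a following G (TGCACNCG or TGCGCNCG) was in 7.67% of promoters. Depth limits MT1E, MT1G and MT1M, where 3 reads per group are the floor.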
